A study of Mus musculus with 4 samples.

Results

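Transcript levels of 10 nuclear receptor genes were described across 4 RNA-sequencing libraries of mouse peritoneal macrophages. The genes were chosen by name as the main lipid-sensing and hormone receptors: Pparg, Ppard, Rxra, Rxrb, Nr1h2, Nr1h3, Rara, Vdr, Nr3c1 and Nr4a1. They are 10 of 16403 genes with a read in any library, and all 10 were listed in all 4 libraries. The libraries cross genotype with treatment. Wild-type C57BL/6 mice and TIF1a-KO mice, which carry floxed Trim24 alleles deleted by LysM-Cre in myeloid cells (TIF1a is another name of the Trim24 protein), were injected with 4% thioglycolate as young adults. After 4 days, lavaged peritoneal cells from both genotypes adhered for 4 h and were starved in 0.5% serum, and the macrophages were left untreated or received mouse IL-4 at 20 ng/mL for 6 h. The wild-type mice were littermates, LysM-Cre also deletes in other myeloid cells, and whether cells of several mice were pooled is not given in the sources used here. Each of the 4 groups is 1 library, so every test compares libraries, not conditions, and every interval and p-value of a pair of libraries covers counting error only.

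Nuclear receptors are transcription factors, and many of them are switched by small lipophilic ligands. PPARs, LXRs, RARs and the vitamin D receptor bind DNA as dimers with an RXR partner, whereas the glucocorticoid receptor acts mainly as a homodimer or monomer, and NR4A receptors work without a classical ligand. Without ligand many of them hold corepressors at target genes, and ligand exchanges these for coactivators. Trim24 was first described as a cofactor that binds the ligand-binding domain of such receptors, and in macrophages PPARγ, the LXRs and the glucocorticoid receptor are known regulators of lipid handling and inflammation.

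The libraries held between 11026033 and 11250099 expected reads, a spread of 1.02-fold. Trim24 itself stood at 2.55 and 1.48 FPKM (fragments per kilobase of transcript, scaled to the size of the library) in the untreated and IL-4 wild-type libraries and at 0.06 and 0.14 FPKM in the TIF1a-KO libraries. In wild-type cells the log2 ratio of Trim24, IL-4 over untreated, was -0.75 (SE 0.18, adjusted p = 4.8e-05 by Fisher's exact test), or -0.44 (adjusted p = 0.026) after removal of the length trend described below, under 1.5-fold. Macrophage markers were abundant, with Csf1r between 135.4 and 284.85 FPKM, while of 6 neutrophil genes Ly6g, S100a9, Camp and Retnlg were at 0 in all 4 libraries, Mpo reached at most 0.07 FPKM and S100a8 was at 5.15 to 8.76 FPKM (21 to 35 reads). Lyz2, the locus that carries LysM-Cre, was at 11289.3 and 10811.05 FPKM in wild-type and at 5193.22 and 4761.07 FPKM in TIF1a-KO. One feature of the libraries touches several receptors: in the wild-type IL-4 library long transcripts read low. The log2 ratio of IL-4 over untreated fell with transcript length in wild-type (Spearman rho = -0.37 across 10443 genes, which are not independent). It fell less in TIF1a-KO (rho = -0.11). The ratio of TIF1a-KO over wild-type rose with length with IL-4 (rho = 0.52) more than without (rho = 0.13). The source of this trend was not tested. With 1 library per group, a technical source and a real difference between the groups cannot be told apart. Each ratio is therefore also given after this trend was removed where that matters, and neither version is taken as the corrected one.

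The reference sequence just upstream of a start site is one place where known regulatory motifs can be looked for. It does not show how a gene was regulated, or which start was used, in these cells. The set of such windows used here, from RefSeq (GRCm38.p6), covered 9 of the 10 genes and held none for Nr3c1. In each, 250 bases upstream of the start were searched on both strands. The 3 genes shown, Pparg, Vdr and Nr4a1, are those that passed both the fold and the p threshold in an IL-4 comparison. Pparg has 3 windows on chromosome 6, all on the plus strand, at chr6:115360894-115361143, chr6:115362099-115362348 and chr6:115421816-115422065, and capitals mark AGGTCA or its complement TGACCT, the core hexamer of nuclear receptor response elements.

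Pparg, start at 115361144: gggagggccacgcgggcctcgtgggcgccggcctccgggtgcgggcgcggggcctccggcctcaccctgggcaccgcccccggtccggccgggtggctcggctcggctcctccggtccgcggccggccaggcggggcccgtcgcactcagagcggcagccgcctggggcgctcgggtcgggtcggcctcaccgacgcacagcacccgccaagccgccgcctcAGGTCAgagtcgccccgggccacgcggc

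Pparg, start at 115362349: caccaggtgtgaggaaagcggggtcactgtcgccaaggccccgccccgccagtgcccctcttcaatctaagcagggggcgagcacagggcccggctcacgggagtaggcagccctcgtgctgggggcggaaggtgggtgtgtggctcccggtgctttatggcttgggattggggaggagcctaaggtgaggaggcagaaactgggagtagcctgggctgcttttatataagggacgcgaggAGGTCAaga

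Pparg, start at 115422066: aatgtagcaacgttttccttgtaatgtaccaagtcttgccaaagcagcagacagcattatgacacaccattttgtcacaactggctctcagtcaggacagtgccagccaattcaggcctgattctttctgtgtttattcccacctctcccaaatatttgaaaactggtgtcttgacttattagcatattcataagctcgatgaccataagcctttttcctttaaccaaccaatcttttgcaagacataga

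The hexamer began 28 bases and 9 bases upstream of the first and second start, and the third window held none. Across all 32851 windows of this length 14.0% held the hexamer, and 3 of 17 windows of the receptor genes did, the third being a window of Rxra with 2 matches. G and C made up 82.4%, 63.6% and 40.8% of the 3 Pparg windows, so the starts differ widely in composition.

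Vdr has 1 window, at chr15:97908297-97908546 on the minus strand. Capitals mark TTC and GAA with 4 bases between them, the palindrome with the spacing that STAT6, the transcription factor activated by IL-4, is known to prefer.

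Vdr, start at 97908296: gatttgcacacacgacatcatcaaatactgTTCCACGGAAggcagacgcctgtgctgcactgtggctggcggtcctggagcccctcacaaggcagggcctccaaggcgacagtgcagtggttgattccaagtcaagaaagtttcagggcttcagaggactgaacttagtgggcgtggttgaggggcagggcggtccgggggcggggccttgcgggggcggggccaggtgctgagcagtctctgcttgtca

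The match began 220 bases upstream of the start. This palindrome occurred in 5.85% of all windows and in 1 of the 17 windows of the receptor genes. None of the windows of Pparg, the receptor called with IL-4 in both genotypes, held it, and neither did that of Nr4a1.

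Nr4a1 has 1 window, at chr15:101266596-101266845 on the plus strand. Capitals mark TGACG or its complement CGTCA, the core of the cyclic AMP response element, through which NR4A genes are known to be induced.

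Nr4a1, start at 101266846: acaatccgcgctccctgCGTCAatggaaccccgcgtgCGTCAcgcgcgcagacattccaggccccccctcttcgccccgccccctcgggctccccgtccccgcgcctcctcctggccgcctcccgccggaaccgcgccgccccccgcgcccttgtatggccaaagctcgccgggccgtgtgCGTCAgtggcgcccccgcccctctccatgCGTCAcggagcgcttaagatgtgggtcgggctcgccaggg

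The core began 233, 213, 69 and 40 bases upstream of the start. At least 1 core stood in 17.8% of all windows and in 3 of 17 windows of the receptor genes, the others being of Rara and Rxrb. Windows with 4 or more, a cut set at the count seen in Nr4a1, made up 0.137%. G and C made up 74.4% of the Nr4a1 window. These matches describe the letters of the windows, and no binding was measured here.

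The order of the receptors by mean FPKM, a scale that divides by transcript length, was Pparg, Nr1h2, Nr1h3, Rxra, Rxrb, Nr3c1, Ppard, Rara, Nr4a1 and Vdr. The means ran from 93.0 for Pparg over 57.5 for Nr1h2 and 5.59 for Rara down to 0.37 for Nr4a1 and 0.367 for Vdr. Between neighbours in this order the ranges over the 4 libraries did not overlap for Nr1h2 and Nr1h3, Rxra and Rxrb, Ppard and Rara, or Rara and Nr4a1. The ranges of Pparg and Nr1h2, Nr1h3 and Rxra, Rxrb and Nr3c1, Nr3c1 and Ppard, and Nr4a1 and Vdr overlapped, so these neighbours are not separated. The counts behind these levels differ: Vdr rested on 3 to 38 reads and Nr4a1 on 2 to 18 reads in a library.

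**Figure D1:**
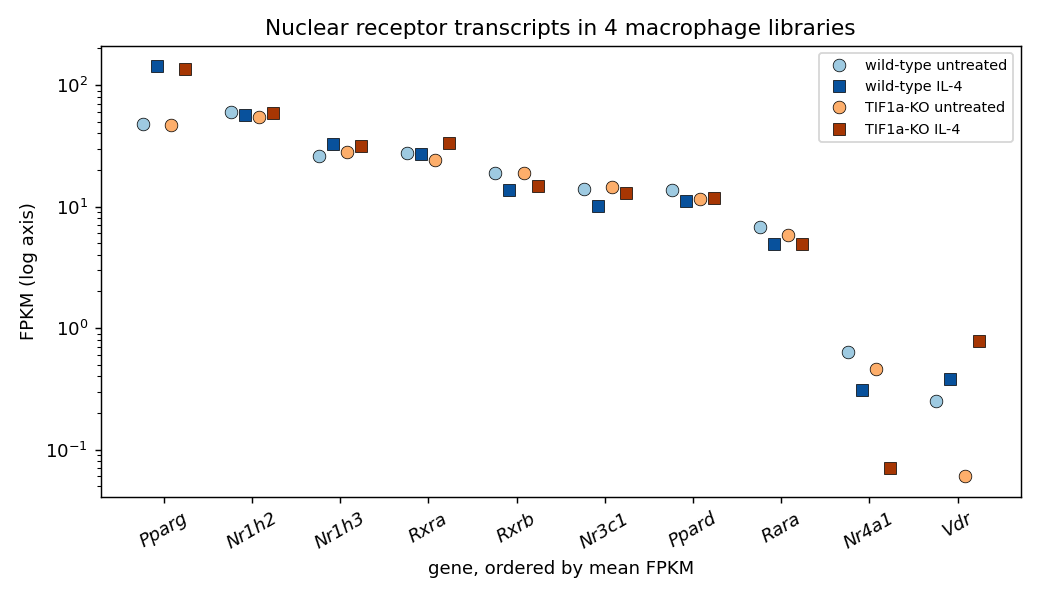
FPKM on a log axis for the 10 receptor genes, ordered by mean level, with 1 point for each of the 4 libraries (circles untreated, squares IL-4; blue wild-type, orange TIF1a-KO). Pparg separates by treatment, at 142.3 and 134.51 FPKM with IL-4 against 47.89 and 47.17 FPKM without, and Vdr and Nr4a1 lie below 1 FPKM.

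IL-4 in wild-type cells raised Pparg, and no other receptor passed both thresholds. A gene was called when the adjusted p of the Fisher test was under 0.05 and the fold on the log2(FPKM + 0.1) scale above 1.5, and 12.8% of 15593 genes were called, 4.91% as higher and 7.88% as lower. Of the 10 receptors 1 was called. At any fold 6 had an adjusted p under 0.05 (Pparg and Nr1h3 higher, Ppard, Rxrb, Rara and Nr3c1 lower), against 32.8% of all genes. The median log2 ratio was -0.18 over the receptors and -0.03 over all genes tested.

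In TIF1a-KO cells IL-4 raised Pparg and Vdr, and Nr4a1 fell, which makes 3 of 10 receptors called against 9.32% of 15738 genes (5.29% higher, 4.03% lower). At any fold 6 receptors had an adjusted p under 0.05 (Pparg, Rxra and Vdr higher, Rxrb, Nr3c1 and Nr4a1 lower), against 25.0% of all genes. The median log2 ratio was 0.06 over the receptors and 0.00 over all genes tested. Both low genes, Vdr and Nr4a1, are called on few reads. Pparg was called higher in both genotypes, and being called in the same direction in both is a feature it shares that with 6.48% of 14960 genes.

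**Figure D2:**
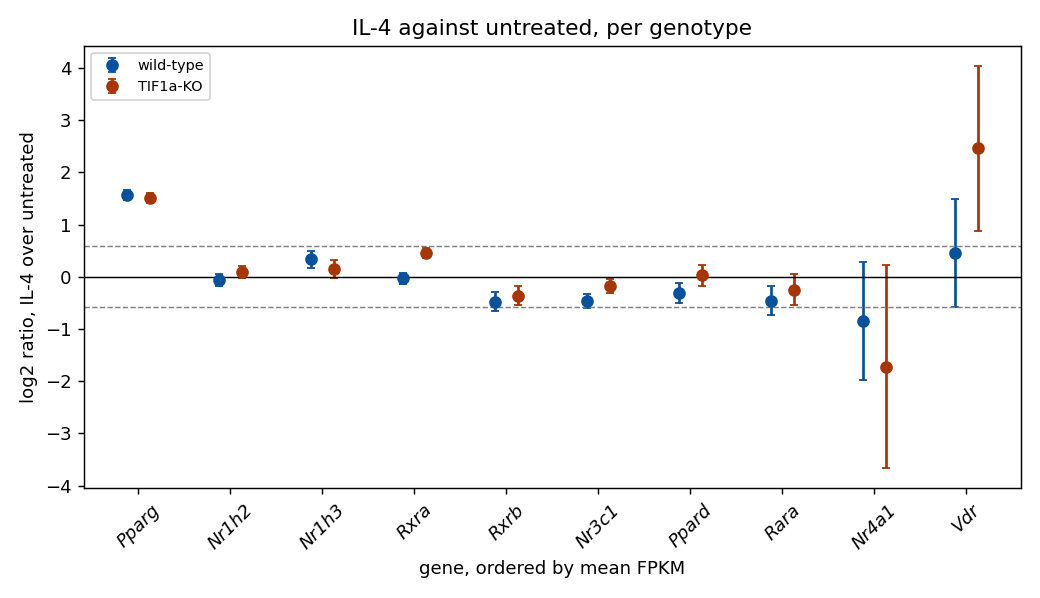
Log2 ratio of IL-4 over untreated on the log2(FPKM + 0.1) scale for the 10 receptor genes in wild-type (blue) and TIF1a-KO (brown). Bars are 95% intervals of the counting error, dashed lines mark a 1.5-fold change, and Pparg lies at 1.57 and 1.51 with bars far shorter than those of Nr4a1 and Vdr. The bar of Nr4a1 in TIF1a-KO crosses 0, while the exact interval of its read ratio (0.0169 to 0.68) does not reach 1.

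Pparg encodes PPARγ, a receptor for fatty acid derivatives and a known mediator of alternative macrophage activation. It stood at 47.89 FPKM (1077 reads) untreated and 142.3 FPKM (3192 reads) with IL-4 in wild-type, and at 47.17 FPKM (1068 reads) and 134.51 FPKM (2948 reads) in TIF1a-KO. Both IL-4 libraries were high, both untreated libraries were low, and treatments did not overlap. The rise was 2.97-fold in wild-type (log2 1.57, SE 0.05, adjusted p = 4.3e-229 by Fisher's exact test). In TIF1a-KO it was 2.85-fold (log2 1.51, SE 0.05, adjusted p = 7.7e-199). The 2 responses differed by -0.07 on the log2 scale (TIF1a-KO minus wild-type, 95% interval -0.22 to 0.07, adjusted p = 0.61 by the z test on counting error), so a difference beyond these bounds was not seen at this depth. An additive edgeR fit over all 4 libraries, in which the spread among libraries enters with 1 residual degree of freedom, gave an IL-4 effect of 1.51 (adjusted p = 1.7e-08). When replicates were assumed to vary with a biological coefficient of 0.2, the adjusted p was 0.02 in wild-type and 0.033 in TIF1a-KO (edgeR exact test).

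The mean length of the Pparg transcripts that the deposited estimates used was 2037.7 and 2053 bases in the untreated wild-type and TIF1a-KO libraries and 1993.5 and 1989.6 bases with IL-4. The IL-4 libraries thus had slightly shorter estimated Pparg transcripts in both genotypes. These are estimates of the mix of annotated isoforms, with no error given in the files. Ppard and Pparg together make up nearly all PPAR transcript here, because Ppara reached at most 0.02 FPKM. The share of Pparg in the summed PPAR FPKM was 77.8% and 80.2% in untreated wild-type and TIF1a-KO and 92.8% and 91.9% with IL-4.

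Of 7464 genes whose mean reached 5 FPKM, Atp6v0a1 and Lair1 were among the 3 whose pattern over the 4 libraries was closest to that of Pparg. Likeness was the Euclidean distance of centred log2(FPKM + 0.1) values. Atp6v0a1, a subunit of the vacuolar proton pump, lay at a distance of 0.02, with 142.44 and 415.04 FPKM in untreated and IL-4 wild-type and 138.31 and 394.82 FPKM in TIF1a-KO. Lair1, an inhibitory collagen receptor, lay at 0.107, with 14.98 and 44.29 FPKM in wild-type and 15.78 and 40.82 FPKM in TIF1a-KO. With 4 points such closeness is a description only.

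Ppard encodes PPARδ, the broadly expressed PPAR. It stood at 13.67 FPKM untreated and 11.06 FPKM with IL-4 in wild-type, and at 11.62 and 11.85 FPKM in TIF1a-KO. The untreated wild-type library was the highest and the other libraries lay close together. The wild-type response of -0.30 (SE 0.10) had an adjusted p of 0.0067 by Fisher's exact test and stayed under 1.5-fold. The TIF1a-KO response was 0.03 (SE 0.10, adjusted p = 0.95), and the test of the difference between them gave 0.33 (95% interval 0.06 to 0.60, adjusted p = 0.11).

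Rxra encodes the main RXR of macrophages, the shared dimer partner of PPARs, LXRs, RARs and VDR. It stood at 27.57 FPKM untreated and 27.01 FPKM with IL-4 in wild-type, and at 24.09 and 33.03 FPKM in TIF1a-KO. The TIF1a-KO libraries were the lowest and the highest, and the wild-type libraries lay between them. The wild-type response was -0.03 (SE 0.05, adjusted p = 0.77), and it became 0.20 (adjusted p = 0.00079) once the length trend was removed. The TIF1a-KO response was 0.45 (SE 0.05, adjusted p = 1e-17), a 1.37-fold rise that stayed under 1.5-fold, and 0.49 after removal of the trend. The difference of the responses was 0.48 (95% interval 0.34 to 0.62, adjusted p = 2.4e-09), and 0.30 (adjusted p = 0.0023) after removal. The listed Rxra transcript is long, with a mean of 5126.7 bases in untreated wild-type. At any size of difference 11.8% of 12513 genes had an adjusted p under 0.05 in this test.

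Rxrb encodes the second RXR. It stood at 19.04 FPKM untreated and 13.66 FPKM with IL-4 in wild-type, and at 18.94 and 14.75 FPKM in TIF1a-KO. Both IL-4 libraries were lower than both untreated libraries. The wild-type response was -0.48 (SE 0.10, adjusted p = 2.6e-06) and the TIF1a-KO response -0.36 (SE 0.09, adjusted p = 0.00041), both under 1.5-fold. The additive fit gave an IL-4 effect of -0.42 (adjusted p = 0.008 in edgeR). Removal of the length trend left -0.51 and -0.39.

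The makeup of the RXR family differed between treatments. Rxra supplied 59.0% and 56.0% of the summed RXR FPKM in untreated wild-type and TIF1a-KO and 66.2% and 68.7% with IL-4. Rxrg supplied at most 0.603%. The RXR sum was 46.72 and 40.77 FPKM in wild-type and 43.03 and 48.07 FPKM in TIF1a-KO, so it was lower with IL-4 in wild-type and higher in TIF1a-KO, in 1 library each and without a test of the sum.

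Nr1h2 and Nr1h3 encode LXRβ and LXRα, the oxysterol receptors that control cholesterol efflux. Nr1h2 was the steadiest of the 10 genes, at 59.46 FPKM untreated and 57.1 FPKM with IL-4 in wild-type and 54.95 and 58.69 FPKM in TIF1a-KO, a spread of 1.08-fold between the lowest and highest library. Its adjusted p was 0.51 in wild-type and 0.25 in TIF1a-KO. Nr1h3 stood at 26.08 and 32.85 FPKM in wild-type and at 28.19 and 31.26 FPKM in TIF1a-KO. Both IL-4 libraries were above both untreated ones. The Nr1h3 response was 0.33 (SE 0.08, adjusted p = 0.00042) in wild-type and 0.15 (SE 0.08, adjusted p = 0.18) in TIF1a-KO, and the difference of -0.17 was not past the threshold (95% interval -0.41 to 0.06, adjusted p = 0.42). LXRα supplied 30.5% and 33.9% of the summed LXR FPKM in untreated wild-type and TIF1a-KO and 36.5% and 34.8% with IL-4.

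Rara encodes RARα, a receptor for all-trans retinoic acid. It stood at 6.74 FPKM untreated and 4.88 FPKM with IL-4 in wild-type, and at 5.82 and 4.9 FPKM in TIF1a-KO, so both IL-4 libraries were below both untreated ones. The response was -0.46 (SE 0.14, adjusted p = 0.0039) in wild-type and -0.24 (SE 0.15, adjusted p = 0.33) in TIF1a-KO. The difference of 0.24 was not past the threshold (95% interval -0.16 to 0.64, adjusted p = 0.55). Rarg, which encodes RARγ, supplied more of the summed RAR FPKM than Rara did, at 59.3% against 33.9% in untreated wild-type and 56.3% against 24.9% in TIF1a-KO with IL-4. Rarb, itself a classical retinoic acid target, rose with IL-4 in both genotypes, from 1.34 to 3.06 FPKM in wild-type (log2 1.13, SE 0.26, adjusted p = 1.7e-05) and from 2.16 to 3.7 FPKM in TIF1a-KO (log2 0.75, SE 0.21, adjusted p = 0.0049).

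Vdr encodes the vitamin D receptor. It stood at 0.25 FPKM (12 reads) untreated and 0.38 FPKM (19 reads) with IL-4 in wild-type, and at 0.06 FPKM (3 reads) and 0.78 FPKM (38 reads) in TIF1a-KO. The 2 TIF1a-KO libraries were the lowest and the highest, as for Rxra. The ratio of reads in TIF1a-KO was 12.7 (exact 95% interval 4.02 to 64.2), and the log2(FPKM + 0.1) ratio of 2.46 had an adjusted p of 6.4e-08 by Fisher's exact test. In wild-type the ratio of reads was 1.55 (exact 95% interval 0.716 to 3.51, adjusted p = 0.49). The difference of the responses was 2.85 (95% interval 0.96 to 4.73, adjusted p = 0.03), which made Vdr the 1 receptor called in this test, where 2.68% of 12513 genes were called. After removal of the length trend the difference was 2.72 with an adjusted p of 0.078, no longer past the threshold, and 0 of 10 receptors against 0.847% of genes were then called. The 3 reads of the untreated TIF1a-KO library are no more than the limit that a count of 0 allows.

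Some markers of mesothelial cells or fibroblasts had their lowest and highest levels in the same libraries as Vdr, and others did not. The summed level of the 7 markers was 34.13 and 27.67 FPKM in untreated and IL-4 wild-type and 16.87 and 36.59 FPKM in TIF1a-KO, none of the 7 being at 0 in all libraries. Col1a1, a fibrillar collagen gene, was at 10.89 and 8.46 FPKM in wild-type and 4.81 and 15.38 FPKM in TIF1a-KO, and Col1a2 followed the same order of TIF1a-KO libraries, at 5.53 and 12.75 FPKM. Pdgfra, at 3.91 and 2.5 FPKM in wild-type and 2.38 and 2.17 FPKM in TIF1a-KO, and Upk3b, at 0.53, 0.31, 0.58 and 0.13 FPKM in the same order, were lowest where Vdr was highest. In wild-type the sum was lower with IL-4. Their part in the Vdr result was not tested, and in bulk RNA fewer cells of a type and less RNA per cell cannot be told apart. Of the vitamin D targets chosen, 0 of 5 reached a mean of 0.5 FPKM. Cyp24a1, the enzyme that degrades active vitamin D and its most sensitive target, was not listed in any of the 4 libraries and so taken as 0.

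Nr3c1 encodes the glucocorticoid receptor. It stood at 13.94 FPKM untreated and 10.12 FPKM with IL-4 in wild-type, and at 14.52 and 12.81 FPKM in TIF1a-KO. Both IL-4 libraries were below both untreated ones, the wild-type IL-4 library being the lowest. The response was -0.46 (SE 0.07, adjusted p = 5e-10) in wild-type and -0.18 (SE 0.07, adjusted p = 0.028) in TIF1a-KO. Its listed transcript of 6345 bases is the longest of the 10, and removal of the length trend left -0.13 (adjusted p = 0.16) and -0.10 (adjusted p = 0.29). The difference of the responses, 0.28 (95% interval 0.09 to 0.47, adjusted p = 0.034), became 0.03 (adjusted p = 0.93). The additive edgeR fit gave an IL-4 effect of -0.31 (adjusted p = 0.035).

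Nr4a1 encodes NUR77, an immediate early orphan receptor. It stood at 0.64 FPKM (18 reads) untreated and 0.31 FPKM (9 reads) with IL-4 in wild-type, and at 0.46 FPKM (13 reads) and 0.07 FPKM (2 reads) in TIF1a-KO. Both IL-4 libraries were below both untreated ones. The ratio of reads, IL-4 over untreated, was 0.49 (exact 95% interval 0.194 to 1.15, adjusted p = 0.2) in wild-type and 0.154 (exact 95% interval 0.0169 to 0.68, adjusted p = 0.032) in TIF1a-KO. The difference of the responses was -1.44 (95% interval -3.69 to 0.81, adjusted p = 0.51), so the genotypes were not shown to differ. Under the assumed replicate variation of 0.2 the TIF1a-KO call was lost (adjusted p = 0.46).

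Between TIF1a-KO and wild-type no receptor passed both thresholds, with or without IL-4. In untreated cells 0 of 10 receptors were called, against 1.58% of 15623 genes, and with IL-4 0 of 10, against 3.81% of 15573 genes. At any fold 1 receptor had an adjusted p under 0.05 without IL-4 (6.63% of all genes) and 2 with IL-4 (19.9% of all genes). These were Rxra, lower without IL-4 (log2 ratio of TIF1a-KO over wild-type -0.19, SE 0.05, adjusted p = 0.0086) and higher with it (0.29, SE 0.05, adjusted p = 6.7e-08), and Nr3c1, higher with IL-4 (0.34, SE 0.07, adjusted p = 3.1e-05). After removal of the length trend the untreated Rxra ratio was -0.20 (adjusted p = 0.0049), while with IL-4 Rxra was at 0.10 (adjusted p = 0.24) and Nr3c1 at 0.06 (adjusted p = 0.78). The additive fit called 0 of 10 receptors for genotype, where edgeR called 1.66% of 11791 genes, DESeq2 0.397% and limma 0.00%, and 14.2% of all genes had an unadjusted p under 0.05 in edgeR. The ratio for Pparg was -0.02 (SE 0.06, adjusted p = 1) without IL-4 and -0.08 (SE 0.04, adjusted p = 0.087) with it.

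**Figure D3:**
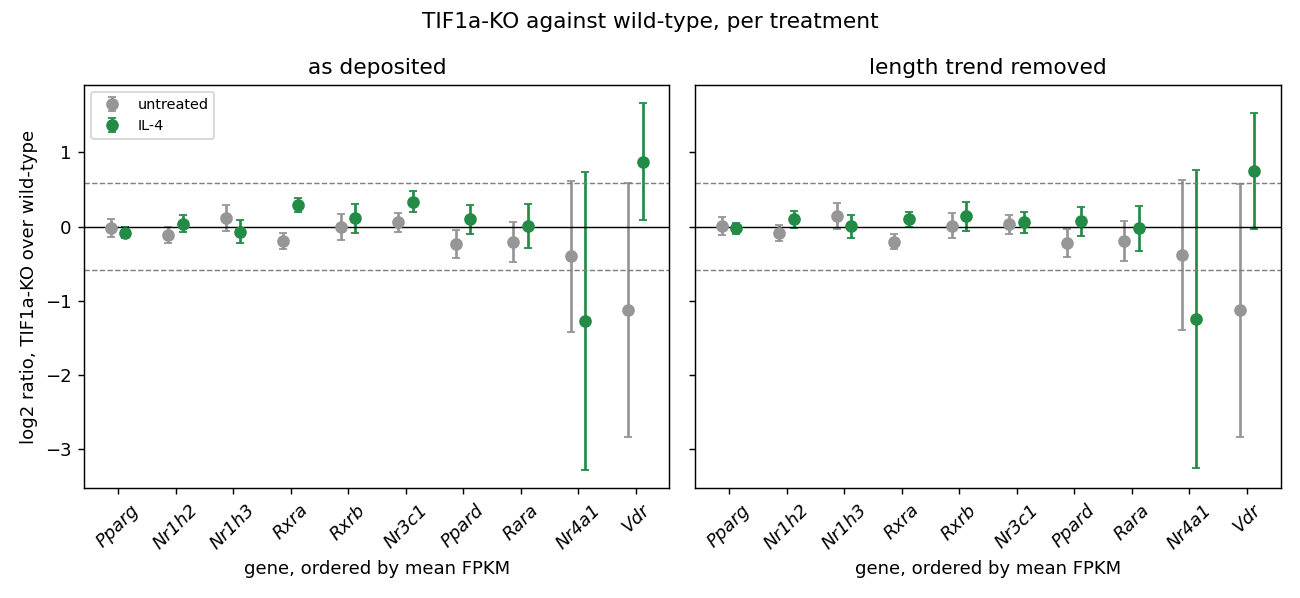
Log2 ratio of TIF1a-KO over wild-type for the 10 receptor genes, untreated (grey) and with IL-4 (green), as deposited (left) and with the transcript-length trend removed (right). Bars are 95% intervals of the counting error and dashed lines mark a 1.5-fold change; Rxra and Nr3c1 with IL-4 move from 0.29 and 0.34 to 0.10 and 0.06.

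For IL-4 the additive fit called 4 of the 10 receptors in edgeR, Pparg and Vdr as higher and Rxrb and Nr3c1 as lower, against 25.3% of 11791 genes. The Vdr effect was 1.89 (adjusted p = 0.017). Nr4a1 at -1.50 (adjusted p = 0.053), Rara at -0.34 (adjusted p = 0.072), Nr1h3 at 0.26 (adjusted p = 0.087) and Rxra at 0.22 (adjusted p = 0.15) were not called. With DESeq2 the IL-4 effect was called for 1 receptor (7.47% of all genes), with all genes that have a read kept for 2 (10.2%), with upper-quartile scaling for 5 (28.6%), with the length trend removed for 6 (33.1%) and with limma for 0 (0.00%), where edgeR had 36.5% of all genes at an unadjusted p under 0.05. This fit assumes that the IL-4 response is the same in both genotypes, and a real difference counts as spread in it.

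Of 39 other nuclear receptor genes 26 had a read in any library. The 3 with the highest mean were Esrra, Nr1d2 and Rarg, at 15.14 to 17.47, 11.35 to 13.92 and 9.61 to 12.63 FPKM, and Pparg, Nr1h2, Nr1h3, Rxra and Rxrb had higher means than any of them. Among the 13 other receptors with a mean of at least 0.5 FPKM, Rarb was called higher with IL-4 in both genotypes. The share called in either direction was 30.8% in wild-type and 15.4% in TIF1a-KO, against 15.7% and 11.6% of all genes at the same minimum. Lower in wild-type were Nr2c2, Nr6a1 and Rora, and lower in TIF1a-KO was Nr6a1, all 3 named after their values were seen. None of these lower calls remained once the length trend was removed. Wild-type ratios were then -0.41 for Nr2c2, -0.42 for Nr6a1 and -0.12 for Rora, and the TIF1a-KO ratio of Nr6a1 was -0.68 (adjusted p = 0.051). Rarb stayed called in both genotypes, at 1.135 in wild-type and 0.729 in TIF1a-KO.

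Several genes that make, move or degrade receptor ligands rose with IL-4. Of 12 measured genes of ligand metabolism and transport, 4 were called higher in wild-type and 5 in TIF1a-KO, with none lower (4 in each after removal of the length trend), and the median log2 ratio was 0.36 and 0.30 against -0.01 and 0.00 over all 11420 genes with a like minimum of 0.5 FPKM, of which 15.7% and 11.6% were called. With that trend removed 10.4% of 15593 genes were called in wild-type and 9.21% of 15738 in TIF1a-KO, with no minimum level. Alox15 and Ch25h, called in both genotypes, were named after their values were seen. Aldh1a2, which makes retinoic acid, the ligand of RARs, rose from 3.92 to 11.75 FPKM in wild-type (log2 1.56, SE 0.17, adjusted p = 7.2e-23) and from 2.92 to 14.44 FPKM in TIF1a-KO (log2 2.27, SE 0.19, adjusted p = 1.8e-45). The difference between these responses was 0.72 (95% interval 0.23 to 1.21, adjusted p = 0.037), and it was of like size, 0.74, with the length trend removed (adjusted p = 0.06). Dhrs3, which reduces retinal, rose from 314.25 to 606.58 FPKM in wild-type (log2 0.95, SE 0.02). In TIF1a-KO it rose from 346.24 to 524.52 FPKM (log2 0.60, SE 0.02). The difference of the Dhrs3 responses was -0.305 (adjusted p = 6.9e-17 by the z test on counting error). With the length trend removed it was -0.24 (adjusted p = 5.1e-10), both under 1.5-fold.

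Of 5 measured retinoic acid targets, 3 were called higher in wild-type (Dhrs3, Rarb and Tgm2) and 4 in TIF1a-KO, and none lower in either. Removal of the length trend left 3 in each, the TIF1a-KO ratio of Dhrs3 becoming 0.56, just under 1.5-fold. Their median was 0.86 and 0.75. The share called was 60.0% in wild-type and 80.0% in TIF1a-KO, against 15.7% and 11.6% of all genes at the same minimum. Tgm2, a transglutaminase, rose from 42.11 to 76.28 FPKM in wild-type (log2 0.86, SE 0.04, adjusted p = 7e-87). In TIF1a-KO it rose from 37.17 to 99.18 FPKM (log2 1.41, SE 0.04, adjusted p = 3.2e-250). The difference of the Tgm2 responses was 0.56 (adjusted p = 7.6e-17 by the z test on counting error). With the length trend removed it was 0.49 (adjusted p = 7.4e-13), both under 1.5-fold. Dhrs3 and Rarb stand in another list here too, and Gata6 is also a marker of resident peritoneal macrophages.

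PPAR targets were called in both directions. Of 11 measured, 1 was called higher and 1 lower in wild-type and 2 higher and 2 lower in TIF1a-KO. The median was 0.00 and -0.03. The share called was 18.2% in wild-type and 36.4% in TIF1a-KO, against 15.7% and 11.6% of all genes at the same minimum. After removal of the length trend 2 were called higher and 0 lower in wild-type, where Lpl was then at -0.58. Angptl4, lower in TIF1a-KO, was named after its values were seen. Cd36, the fatty acid scavenger receptor, rose from 467.17 to 794.58 FPKM in wild-type (log2 0.77, SE 0.01) and from 377.2 to 616.75 FPKM in TIF1a-KO (log2 0.71, SE 0.02). Lpl, lipoprotein lipase, fell from 342.09 to 212.52 FPKM in wild-type (log2 -0.69, SE 0.02) and from 486.64 to 285.36 FPKM in TIF1a-KO (log2 -0.77, SE 0.02). Fabp4, a fatty acid carrier, was at 599.05 and 714.84 FPKM in wild-type and 612.6 and 575.8 FPKM in TIF1a-KO, under 1.5-fold in both. The additive edgeR fit gave Lpl a genotype effect of 0.47 (adjusted p = 0.013), higher in TIF1a-KO. The same fit gave genotype effects of the other sign, not called, for Cd36 (-0.34, adjusted p = 0.09) and Fabp4 (-0.14, adjusted p = 0.57).

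LXR targets in wild-type were called about as often as all genes. Of 13 measured, 0 were called higher and 2 lower in wild-type, and 1 higher and 2 lower in TIF1a-KO. The median was -0.16 and -0.11. The share called was 15.4% in wild-type and 23.1% in TIF1a-KO, against 15.7% and 11.6% of all genes at the same minimum. Abca1, the cholesterol efflux pump, fell from 7.94 to 3.18 FPKM in wild-type (log2 -1.29, SE 0.09, adjusted p = 3.7e-53) and from 10.98 to 5.32 FPKM in TIF1a-KO (log2 -1.03, SE 0.07, adjusted p = 2.9e-50). Mylip, which degrades the LDL receptor, fell from 5.96 to 2.88 FPKM and from 5.15 to 2.99 FPKM. Abcg1, the other efflux pump, was at 40.4 and 59.58 FPKM in wild-type (log2 0.56, SE 0.04) and rose from 47.64 to 75.89 FPKM in TIF1a-KO (log2 0.67, SE 0.03). After removal of the length trend Abcg1 was called in both genotypes (log2 0.85 and 0.73), which makes 1 LXR target called higher in each. Abca1 was higher in TIF1a-KO in the additive fit (log2 0.59, adjusted p = 0.0074), and its ratio with IL-4 was 0.73, or 0.25 after removal of the length trend.

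Glucocorticoid targets were called in both directions. Of 13 measured, 4 were called higher and 2 lower in wild-type and 3 higher and 1 lower in TIF1a-KO. The median was 0.25 and 0.05. The share called was 46.2% in wild-type and 30.8% in TIF1a-KO, against 15.7% and 11.6% of all genes at the same minimum. Fkbp5, a chaperone of the receptor and its usual readout, rose from 1.9 to 4.31 FPKM in wild-type (log2 1.14, SE 0.19, adjusted p = 1.1e-09) and from 1.71 to 4.54 FPKM in TIF1a-KO (log2 1.36, SE 0.20, adjusted p = 7.4e-13). Tsc22d3, which encodes GILZ, another usual readout, was at 64.73 and 66.21 FPKM in wild-type and 73.97 and 72.02 FPKM in TIF1a-KO, with adjusted p of 0.7 and 0.75. Klf9 rose from 11.97 to 20.33 FPKM in wild-type (log2 0.76, SE 0.09) and from 13.61 to 31.54 FPKM in TIF1a-KO (log2 1.21, SE 0.08), and Errfi1 rose in both genotypes as well. With IL-4 Klf9 was higher in TIF1a-KO than in wild-type (log2 0.63, SE 0.07, adjusted p = 2.6e-19, and 0.60 after removal of the length trend). Zfp36, higher in wild-type with IL-4, and Per1, lower there, were named after their values were seen. Dusp1 fell from 8.18 to 5.24 FPKM and from 8.04 to 4.79 FPKM. Of the 8 chaperones of steroid receptors, Fkbp5 was the 1 called in each genotype, a share of 12.5%.

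Immediate early genes are the class to which Nr4a1 belongs. Of 10 measured, 3 were called higher and 1 lower in wild-type and 4 higher and 2 lower in TIF1a-KO. The median was 0.18 and 0.20. The share called was 40.0% in wild-type and 60.0% in TIF1a-KO, against 15.7% and 11.6% of all genes at the same minimum. Ier3 rose from 5.07 to 60.29 FPKM in wild-type (log2 3.55, SE 0.19) and from 5.16 to 53.89 FPKM in TIF1a-KO (log2 3.36, SE 0.19). Egr2 rose from 29.41 to 95.84 FPKM in wild-type (log2 1.70, SE 0.05) and by 1.55 on the log2 scale in TIF1a-KO (SE 0.05). Atf3 rose from 227.95 to 457.28 FPKM in wild-type and by 0.99 on the log2 scale in TIF1a-KO. Egr1, higher in TIF1a-KO, and Btg2, lower there, were named after their values were seen. Nr4a1 and its paralogs Nr4a2 and Nr4a3 stayed below 1 FPKM in every library.

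Coregulators are the proteins that receptors recruit. In wild-type 6 of 22 were called lower (Crebbp, Ep300, Tbl1xr1, Trim24 and, named after their values were seen, Ncoa1 and Ncoa7) and 1 higher, with a median of -0.41. In TIF1a-KO 1 was lower and 1 higher, with a median of -0.17. The share called was 31.8% in wild-type and 9.1% in TIF1a-KO, against 15.7% and 11.6% of all genes at the same minimum. Removal of the length trend left 3 lower and 1 higher in wild-type, the calls of Crebbp, Ep300 and Trim24 being lost. In TIF1a-KO it left 0 lower and 1 higher. The IL-4 responses of Ncoa1 differed by 0.94 (TIF1a-KO minus wild-type, adjusted p = 9.6e-09 by the z test on counting error). With the trend removed the Ncoa1 difference was 0.65 (adjusted p = 0.00068), both past 1.5-fold. For Crebbp the difference of 0.57 became 0.27 (adjusted p = 0.3). Of 12513 genes 2.68% were called in this test, and 0.847% with the trend removed. Ppargc1b, a coactivator of PPARs and of Esrra, rose from 1.99 to 3.81 FPKM in wild-type (log2 0.90, SE 0.20, adjusted p = 9.1e-06) and from 2.14 to 5.59 FPKM in TIF1a-KO (log2 1.35, SE 0.18, adjusted p = 1.8e-14). Tbl1xr1, part of the corepressor complex, fell in both genotypes (log2 -1.04 and -0.65), and after removal of the trend by 0.60 and 0.53, the second under 1.5-fold.

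The corepressor Ncor1 and the acetyltransferases Crebbp and Ep300 have long transcripts. Crebbp was at 6.68 FPKM untreated and 3.64 FPKM with IL-4 in wild-type and at 6.77 and 5.49 FPKM in TIF1a-KO. Its wild-type ratio of -0.86 became -0.46 after removal of the trend, no longer past 1.5-fold. Ep300 and Ncor1 had wild-type ratios of -0.65 and -0.48, which became -0.18 and -0.03. The wild-type IL-4 library was the lowest of the 4 for each of these genes before the trend was removed.

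**Figure D4:**
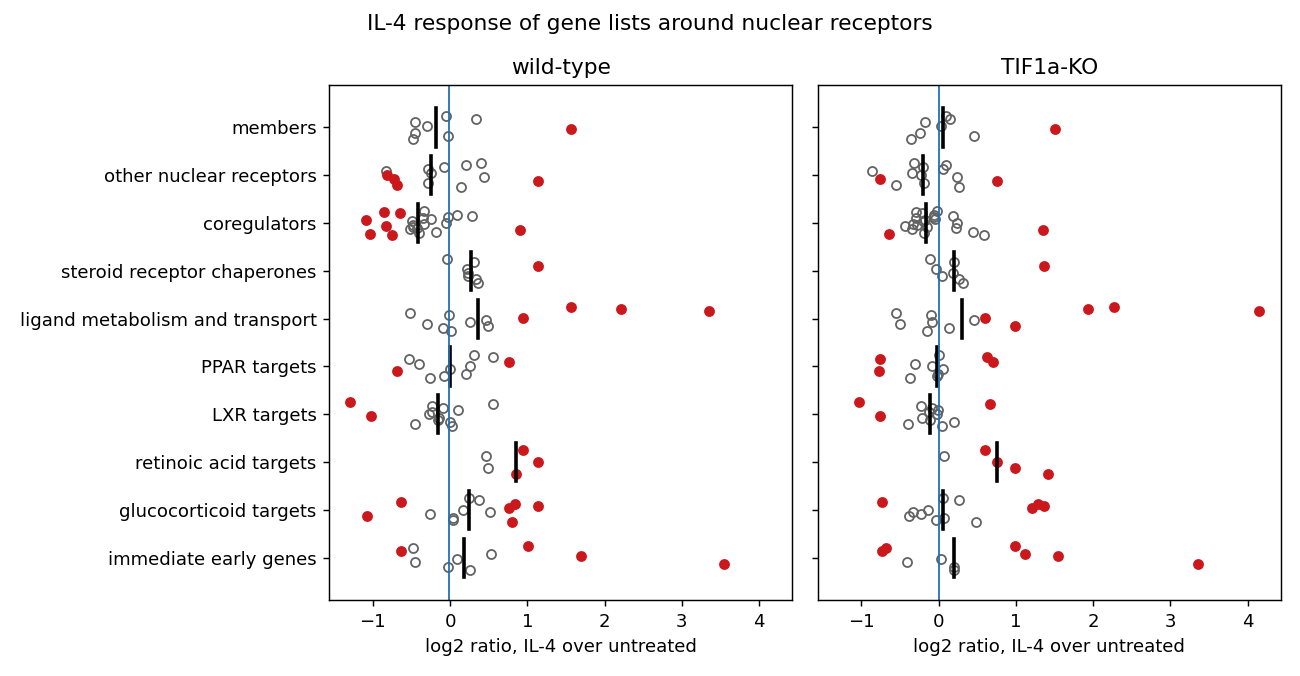
Log2 ratio of IL-4 over untreated in wild-type (left) and TIF1a-KO (right) for the receptor genes (members) and the lists around them, 1 point per gene with a mean of at least 0.5 FPKM. Filled red points were called, black bars are list medians, the blue line is the median of all genes, and the medians of retinoic acid targets (0.86 and 0.75) lie farthest to the right.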

How the data were processed

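Total RNA of 4 libraries was sequenced. How transcripts were selected and whether counting used strand are not given in the sources used here. The authors mapped the HiSeq reads to GRCm38/mm10 with Bowtie and estimated each gene with RSEM (versions not given in the sources used here); the deposited expected counts and the deposited FPKM values were used as they stand, 22.2% to 22.8% of the expected counts not being whole, so that RSEM divided some reads between genes, as for Rara and Nr3c1. An unlisted gene was taken as 0. Symbols and positions came from RefSeq GRCm38.p6 (16365 of 16403 IDs matched).

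Ratios were computed on log2(FPKM + 0.1). Expected counts were rounded and each pair of libraries was compared with a two-sided Fisher's exact test (scipy 1.17.1) and Benjamini-Hochberg adjustment over all genes with a read in the pair. The SE is the counting error of the log2 ratio. The difference of the IL-4 responses was a z test against counting error for genes with a mean of at least 5 reads (0.5 added). The additive fit, genotype plus treatment, used the edgeR 4.0.16 quasi-likelihood test, with DESeq2 1.42.0 and limma 3.58.1 as alternatives (R 4.3.3). The length trend was a lowess curve (fraction 0.3, statsmodels 0.14.6) through each library's log2 values against transcript length. At these depths 3 reads, the limit that a count of 0 allows, are 0.267 to 0.272 CPM. The scripts were tested on simulated data.

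The 10 genes and the lists around them were chosen with earlier results of these data known. Named genes were the 10 receptors and Trim24; of other receptors those with a mean of at least 1 FPKM called in both pairs of a kind and the 3 most abundant; of each list up to 4 called in both IL-4 pairs, any called in both genotype pairs and a few usual readouts; and the 3 nearest genes of a receptor called in both IL-4 pairs. No list was tested. Some genes that these rules cover are not reported here.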

Additional observations from a re-analysis of the deposited data

Results flagged for a closer look

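For 3 receptors the IL-4 response differed between TIF1a-KO and wild-type by the test of the difference itself, at any size, as did 11.8% of 12513 genes. The log2 difference, TIF1a-KO minus wild-type, was 0.48 for Rxra (adjusted p = 2.4e-09 by the z test on counting error), and 0.30 (adjusted p = 0.0023) with the length trend removed. For Vdr it was 2.85 (adjusted p = 0.03), and 2.72 (adjusted p = 0.078) with the trend removed, on 12, 19, 3 and 38 reads in untreated and IL-4 wild-type and untreated and IL-4 TIF1a-KO. For Nr3c1 it was 0.28 (adjusted p = 0.034), 0.26 (adjusted p = 0.06) with TMM and 0.03 (adjusted p = 0.93) with the trend removed. Each group is 1 library, so the spread between animals was not measured in any of the 3 tests.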

How the results depend on the processing

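No paired analysis was possible because each group holds 1 library. The additive genotype effect, called on the adjusted p alone, kept its number of receptors (0) under its alternatives. The share of all genes called for it was 5.29% with the length trend removed, 4.19% with upper-quartile scaling and 0.147% when all genes with a read were kept. The receptors called in the IL-4 comparison of wild-type (1) and in both genotype comparisons (0 each) kept their number under every alternative that kept a fold minimum. At any fold they were 6 in wild-type (32.8% of all genes), 1 without IL-4 (6.63%) and 2 with IL-4 (19.9%), and 6 in TIF1a-KO with IL-4 against untreated (25.0%). In TIF1a-KO the IL-4 count of 3 became 1 with a minimum mean of 1 FPKM, which drops Vdr and Nr4a1 (9.32% of all genes were called without that minimum). For the difference of the responses the count of 1 (2.68% of all genes) became 3 without a fold minimum (11.8%) and 0 with the length trend removed (0.847%). For the additive IL-4 effect the count of 4 became 1 with DESeq2, 2 when all genes with a read were kept and 0 with limma, which called 0.00% of all genes. The cause of these changes was not tested. Of 462 single values of the receptors under an alternative, 429 kept direction and call, 13 lost and 6 gained the call, and 14 changed sign. The alternatives for pseudocount, CPM and a higher fold minimum kept the main adjusted p. A receptor not under 0.05 in the main setting could not gain a call there, so part of this count was fixed in advance. With the length trend removed the log2 ratio changed sign for Rxra (0.195) and Tsc22d3 (-0.034) with IL-4 in wild-type. For TIF1a-KO over wild-type it did so for Pparg (0.004) and Rxrb (0.013) without IL-4 and for Nr1h3 (0.002) and Rara (-0.023) with it. In the additive fit it did so for the IL-4 effect of Nr1h2 (-0.019) and the genotype effects of Rxra (-0.048) and Nr1h2 (0.006). The Rxrb ratio without IL-4 turned with CPM (0.001) and TMM (0.005), and the Rara ratio with IL-4 with TMM (-0.003). The genotype effect of Vdr turned with DESeq2 (-0.275) and limma (-0.127) and that of Nr1h3 with upper-quartile scaling (-0.013). Calls on single named list genes under the same settings were added after seeing the data. Depth limits Vdr and Nr4a1, and with 1 library per group no value carries the spread between animals.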
